A study of Caenorhabditis elegans with 2 samples.

Results

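The col genes encode most of the cuticle collagens of Caenorhabditis elegans, the structural proteins of the worm's outer cuticle. They were taken as every protein-coding gene whose symbol is col- followed by a number in the Ensembl annotation of WBcel235 (ce11), which gave 156 of 19985 protein-coding genes. They were measured here by ChIP-seq of PHA-4, a FoxA-type forkhead transcription factor that specifies the pharynx, in whole late embryos of mixed sex. ChIP-seq recovers and sequences the DNA bound by a protein. The embryos were of strain OP37, genotype unc-119(ed3) III; wgIs37, in which the wgIs37 insertion supplies PHA-4 fused to eGFP. All samples shared this genotype and stage, the age in hours was not stated, and the group comprised 2 biological replicates from separate biosamples. No second group of embryos was analysed here, so the col genes were compared with the other 19829 protein-coding genes within each peak list.

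A col gene was said to have a summit when the highest point of a deposited PHA-4 peak lay from 1000 bp upstream to 500 bp downstream of one of its annotated transcript starts, its promoter window. The family was selected on results from these same peak lists, so its shares are given as a description and no test was made of them. There were 5607 peaks in the relaxed list for replicate 1, 1729 in that for replicate 2 and 7768 in that made from both replicates pooled. The authors' signal per peak had a median of 2.995 in replicate 1, 2.32 in replicate 2 and 2.895 in the pooled list. The lists differed in how firmly their peaks were called: a q-value, deposited by the authors, of 0.05 or less was given for 5248 peaks in replicate 1, 1330 in the pooled list and 0 in replicate 2. Replicate 2 therefore rests on weakly supported peaks, and its smallest q was 0.351. The peak lists carry no read counts, so library depth is unknown. In whole embryos, binding in few cells and weak binding in many cells cannot be told apart.

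Cuticle collagens are made and secreted mainly by the epidermis (hypodermis). A fresh set is made before each molt, and the genes of the family are switched on in waves. The proteins are short, and their central Gly-X-Y repeats, with glycine at a regular spacing, wind into a triple helix. A proprotein processing site of the form RXXR lies before the repeats in the precursor, and prolyl 4-hydroxylases and cross-linking enzymes finish the fibre. PHA-4 is known as the organ selector of the pharynx, which is lined by a cuticle of its own, and it is also made in the intestine.

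The name of the family was checked against the proteins. A run of at least 10 uninterrupted Gly-X-Y triplets was encoded by 150 of the 156 col genes, 96.2%, against 0.151% of the 19817 other nuclear protein-coding genes. An RXXR motif preceded the first 3 Gly-X-Y triplets in a row in 142 members, 91.0%. The proteins had a median of 304 residues, close to the 330 of other genes, and were encoded in a median of 2 coding exons against 5. Of the 6 members with a shorter longest run, col-2 had 8 triplets in its run, and col-9, col-55, col-151 and col-183 had 9 each. In col-17 the Ensembl coding sequence gave a longest run of 1 triplet, whereas the RefSeq coding sequence of the same gene gave 283 residues with a run of 21, so the reading frames of the annotations differ there. At the long end stood col-99, a transmembrane collagen with 735 residues in 18 coding exons, col-135 with 660 residues and a run of 154 triplets, and col-163 with 740 residues. Each exceeded the length typical of the family by more than a factor of 2.

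Sequences at 4 of the 5 replicate 1 col summits and at the strongest one of replicate 2 are shown because they give the genomic context of the few col genes with PHA-4 peaks. The col-8 summit of replicate 1 lay in a UTR and its sequence is not shown. Each is 101 bases centred on the summit, on the strand of the col gene, in WBcel235 (ce11). Capitals mark a match to the FoxA consensus, which reads T, A or G, T, T, G or T, A or G, C or T, sought on both strands with overlapping matches counted separately. The first 4 are from replicate 1 and the last is from replicate 2.
col-38, II:8569475-8569575, minus strand: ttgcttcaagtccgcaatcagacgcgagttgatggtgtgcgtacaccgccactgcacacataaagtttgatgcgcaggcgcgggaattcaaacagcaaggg
col-71, II:3502616-3502716, minus strand: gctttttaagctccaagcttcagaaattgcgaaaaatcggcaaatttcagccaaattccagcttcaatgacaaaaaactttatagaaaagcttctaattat
col-120, IV:9261481-9261581, minus strand: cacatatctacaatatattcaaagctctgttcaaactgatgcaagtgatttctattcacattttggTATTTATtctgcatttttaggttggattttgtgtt
col-116, IV:8355772-8355872, plus strand: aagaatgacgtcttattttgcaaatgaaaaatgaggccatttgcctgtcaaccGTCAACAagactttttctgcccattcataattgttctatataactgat
col-152, V:10561209-10561309, plus strand: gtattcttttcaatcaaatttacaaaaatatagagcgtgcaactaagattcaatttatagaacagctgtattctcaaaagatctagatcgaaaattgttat
A match stood in col-120, 19 bp from the summit, and in col-116, 6 bp from it. The stretches of col-38, col-71 and col-152 held none in these letters. Across all promoter-window summits of replicate 1, 58.6% of 2585 had a match within 100 bp, and 2 of the 5 at col genes did.

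The share of col genes with a PHA-4 summit was below that of other genes in each of the 3 lists. In replicate 1, 5 of 156 col genes had a summit, 3.21% with an exact 95% Clopper-Pearson interval of 1.05 to 7.32%, while 2856 other genes did, 14.4%. At the share of the other genes, 22.5 col genes would have had one, and the ratio of the shares was 0.223. In replicate 2, 3 col genes had a summit, 1.92% with an interval of 0.398 to 5.52%, against 3.11% of the other genes, a ratio of 0.618. The interval of replicate 2 contains the share of the other genes. In the pooled list 9 col genes had a summit, 5.77% with an interval of 2.67 to 10.7%, against 17.9%, a ratio of 0.322. The authors' final list of 9 peaks placed a summit at 7 protein-coding genes, none of them a col gene. These intervals cover the counting of genes only, and since the family was chosen on these lists nothing further is read from the gap.

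The col genes were missing from the top of the replicate 1 and pooled rankings. Among the strongest 1000 peaks of replicate 1, no col gene had a summit. A count of 0 of 156 allows a share of up to 1.92% by a limit of 3 counts, and up to 2.34% by the exact interval, while 3.34% of the other genes did. Among the strongest 2000 it was 3 col genes, 1.92%, against 6.27%, and among the strongest 4000 all 5, against 11.3%. In the pooled list, 0 col genes stood among the strongest 1000 against 3.38%, 1 among the strongest 2000 against 6.12%, and 4 among the strongest 4000 against 10.6%. The ranking of replicate 2 was different, since 1 col gene, col-152, stood among its strongest 100 peaks, where 0.212% of the other genes did. Among its strongest 1000 there were 2 col genes, 1.28%, against 1.7%. The plot of shares against peaks used shows the col genes below the rest at each step of the replicate 1 and pooled lists.

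**Figure D1:**
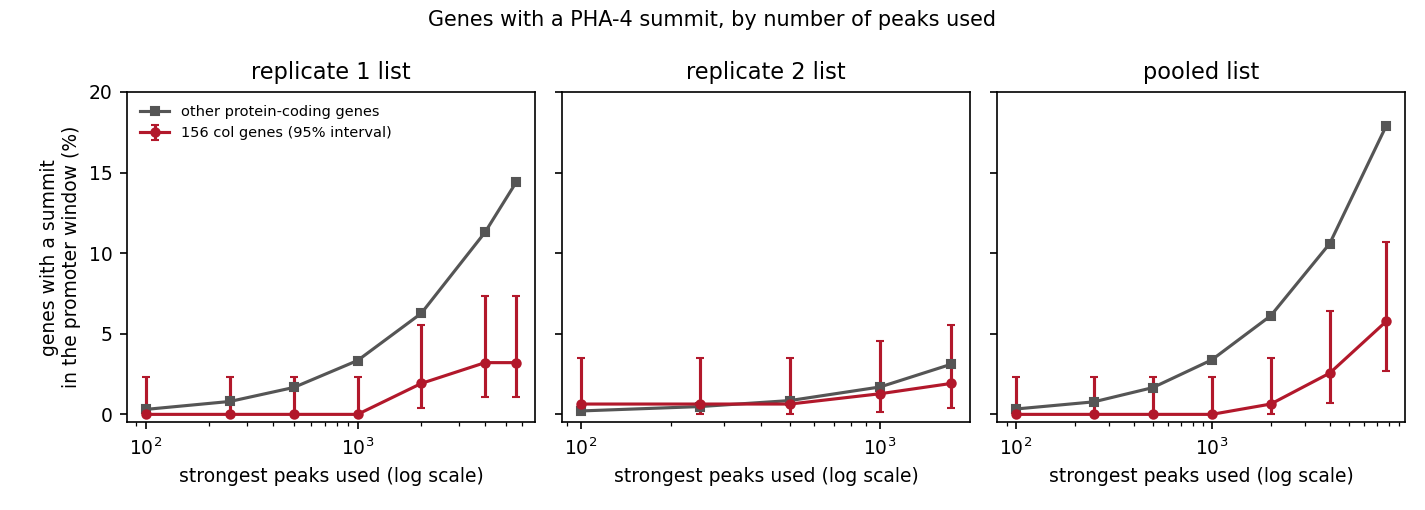
Share of genes with a PHA-4 summit in the promoter window (percent, vertical axis) against the number of strongest peaks used (log scale), in the replicate 1, replicate 2 and pooled lists. Red points are the 156 col genes with exact 95% intervals and grey squares the other 19829 protein-coding genes; at all peaks the col genes stand at 3.21% against 14.4%, 1.92% against 3.11%, and 5.77% against 17.9%.

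No col gene had a summit in both replicates. Of the other genes 128 did, 0.646%, a share so low that a count of 0 among 156 genes does not stand apart from it. Taking either replicate gave 8 col genes, of which 5 came from replicate 1 and 3 from replicate 2. Thus the count was 5 without replicate 2 and 3 without replicate 1. Of the 5 from replicate 1, 4 also had a summit in the pooled list, and the pooled list added 5 that neither replicate had. In all, 13 of 156 col genes, 8.33%, had a summit in any of the 3 lists, against 22.1% of the other genes, and 143 had none.

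The replicate 1 peaks at col genes had middling signals. That at col-38 (II:8569353-8569696) had a signal of 5.178, rank 1040, and a q of 0.00529, with its summit at −437 bp from the col-38 start. This summit lay inside a non-coding exon of F54C9.16 and F54C9.17, and closer, at −402 bp, to the start of rpl-5, which encodes a large-subunit ribosomal protein. Upstream positions are negative. The peak at col-71 (II:3502494-3502837) had a signal of 4.128, rank 1563, and lay between genes, at −96 bp relative to col-71 and also in the window of Y49F6B.2. The peak at col-120 (IV:9261359-9261702) had a signal of 3.667, rank 1943, and lay within an intron of col-120 itself, at +256 bp from the start. It is the summit with the FoxA match at 19 bp shown above, and the only one of the 5 that lay in the window of no other protein-coding gene. The peak at col-8 (III:7021242-7021585) had a signal of 2.784, rank 3184, with its summit at −814 bp from the col-8 start in the 5′ UTR of rfl-1, an E1-type enzyme gene of the NEDD8 pathway. The peak at col-116 (IV:8355650-8355993) had a signal of 2.539, rank 3877, in intergenic DNA at −84 bp from the start of col-116 and −70 bp from that of F17E9.2. The median of these 5 signals, 3.667, was close to the 3.21 of all promoter-window summits in that list. All 5 had q-values from 0.00386 to 0.0106.

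In replicate 2 the col gene peaks lay apart from other genes but carried high q-values. The peak at col-152 (V:10560964-10561553) had a signal of 3.539, rank 77 and a q of 0.373, and lay in an intron of col-152 at +338 bp. At col-49 on chromosome I, 2 summits fell in the window, a first in its coding exon at +170 bp with a signal of 2.321 and a second at −115 bp with 2.193. The peak at col-95 (III:11702728-11703317) had a signal of 2.087, rank 1446 and a q of 0.789, and lay at −971 bp, near the edge of the window. None of these col genes had a summit in replicate 1 or in the pooled list.

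In the pooled list 4 of the 5 replicate 1 col genes had a summit again, and 5 further col genes had one. col-38 came first, with a signal of 5.178, rank 1121 and a q of 0.0335, and was the only col gene of that list with a q of 0.05 or less. col-71 followed with 3.622 at rank 2406, col-120 with 2.975 at rank 3682 and col-116 with 2.182 at rank 6578. Their summits lay at −421, −222 and −97 bp from the starts for col-38, col-71 and col-116, and at the same base of the intron for col-120. The 5 col genes with a summit in the pooled list alone were col-81 with a signal of 3.043, col-158 with 2.396, col-132 with 2.139, col-130 with 2.111 and col-86 with 2.108. Only the col-158 summit of these lay within the col gene itself, in an intron at +399 bp. The col-81 summit lay in a non-coding exon of F38A3.3, and those of col-132, col-130 and col-86 in introns of prcc-1, ugt-65 and rict-1. The col-8 peak of replicate 1 had no counterpart in the window of col-8 in the pooled list.

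**Figure D2:**
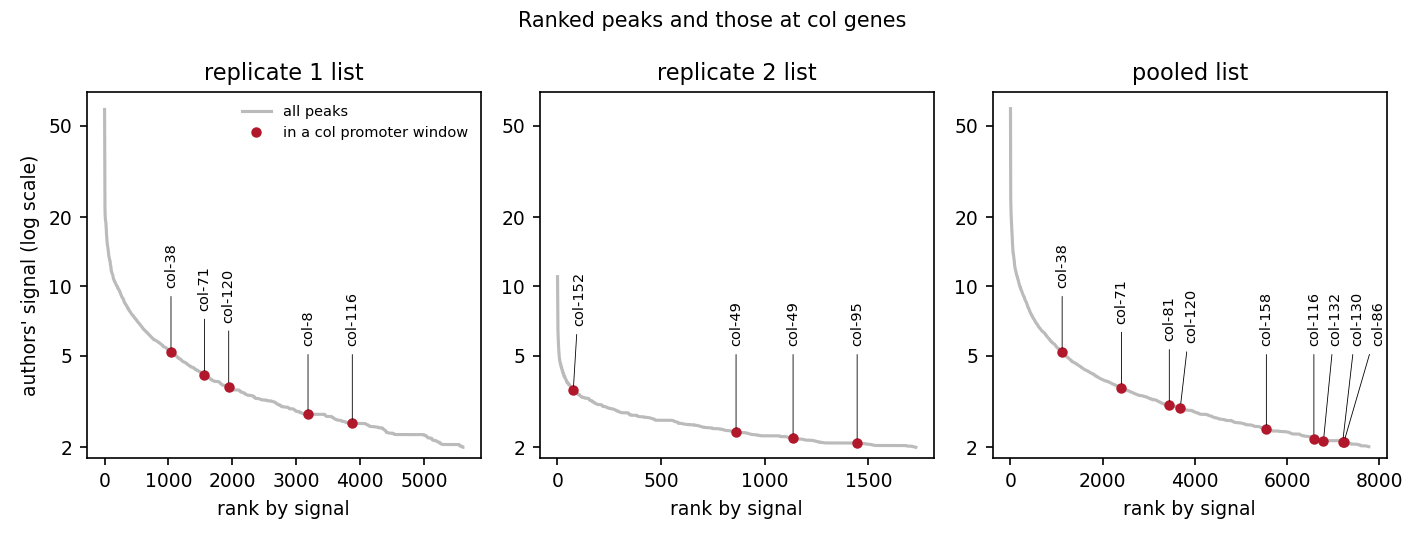
The authors' signal of each peak (log scale, vertical axis) against its rank in the replicate 1, replicate 2 and pooled lists, in grey, with the peaks whose summit lies in a col promoter window in red and named. In replicate 1 the highest col peak, at col-38, is at rank 1040 with a signal of 5.178, and in replicate 2 the highest, at col-152, is at rank 77 with 3.539.

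Summits just outside the window show how much the counts turn on its edges. In replicate 1 the nearest outside were col-153, 106 bp beyond the window with a signal of 2.783, col-132, 119 bp beyond with 3.891, and col-155, 278 bp beyond with 2.838. In replicate 2 they were col-111, 376 bp beyond, col-150, 869 bp beyond, and col-148, 1026 bp beyond. In the pooled list they were col-54, 3 bp beyond, col-153, 83 bp beyond, and col-9, 136 bp beyond. For col-132 the replicate 1 summit lay downstream at +619 bp, whereas the pooled summit inside the window lay upstream at −670 bp. These were different summits, so that gene's change between the lists was not 1 summit crossing an edge.

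The replicate 1 summits at col genes were mostly shared with a neighbour. For 4 of the 5 col genes every summit also lay in the window of another protein-coding gene, against 35.8% of the 2856 other genes with a summit. In the pooled list this was so for 3 of 9 against 32.7%, and in replicate 2 for 0 of 3 against 28.2%. Among genes whose window was shared with no other gene, 1 of 99 col genes, col-120, had a replicate 1 summit, against 11.6% of the others. A head-to-head neighbour starting within 1000 bp was present for 18 col genes, and 3 of these, 16.7%, had a replicate 1 summit against 23.3% of other genes so arranged. Of the 138 col genes without such a neighbour 2 did, 1.45%, against 12.5%. Whether a shared peak reflects the col gene or its neighbour cannot be told apart from position alone.

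Summit density was also counted along the 10 kb on each side of the starts, as a description that overlaps the window used to choose the family. Within 1000 bp on either side of the 5′ most start, replicate 1 had 2.24 summits per 100 col genes per kb against 7.81 for other genes. From 3000 to 1000 bp upstream the densities were 4.49 and 5.85, and beyond 5000 bp they were 5.13 and 5.41. At other genes the density peaked in the kb before the start, at 11 against 2.56 at col genes. In the pooled list the densities were 4.17 against 10.2 within 1000 bp, and beyond 5000 bp the col genes were slightly higher, at 7.69 against 7.52. In replicate 2 the other genes had no peak at the start, with 1.84 within 1000 bp and 1.76 beyond 5000 bp, and col genes had 1.28 and 1.86. There the col genes stood at 0.962 against 1.78 from 3000 to 1000 bp upstream and at 3.21 against 1.93 from 1000 to 3000 bp downstream. The median distance from a start to the nearest summit of replicate 1 was 8173 bp for col genes and 6774 bp for other genes. It was 6015 against 4673 bp in the pooled list, and the order was the other way in replicate 2, with 16640 against 20473 bp.

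**Figure D3:**
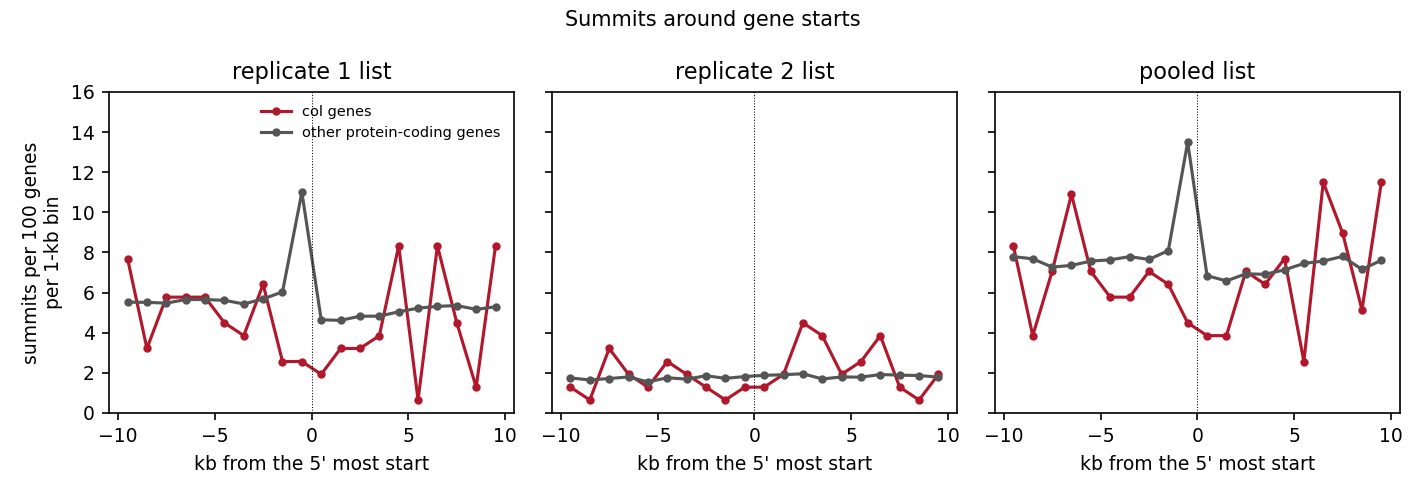
Number of PHA-4 summits per 100 genes in each 1-kb bin (vertical axis) against distance from the 5′ most transcript start (kb, upstream negative), for col genes (red) and other protein-coding genes (grey) in the 3 lists. In replicate 1 the other genes rise to 11 in the kb before the start, where the col genes stand at 2.56; the lines for col genes jump from bin to bin because each bin holds few summits.

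The genes around the col genes had summits at shares near those of all other protein-coding genes. Other protein-coding genes with a start within 10 kb of a col start numbered 553, and 70 of them, 12.7%, had a summit in replicate 1, from 60 distinct peaks. In replicate 2 it was 21, 3.8%, and in the pooled list 101, 18.3%. The shares of all other protein-coding genes were 14.4% in replicate 1, 3.11% in replicate 2 and 17.9% in the pooled list. The strongest replicate 1 peaks among them were at hrpk-1, which encodes an hnRNP K-type RNA-binding protein, with a signal of 10.6 at rank 153, at iff-2, a translation factor gene, with 10.05 at rank 194, and at rps-0, a small-subunit ribosomal protein gene, with 8.858 at rank 290. All of these ranks precede that of the highest col peak. The iff-2 peak also lay in the window of F54C9.14. The rps-0 peak also lay in that of rbg-3 and nearer its start, at −87 bp against −286 bp for rps-0. The differences between col genes and neighbours were not tested.

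Other collagen genes with a summit were also few in number. Their shares stood below that of all other genes in replicate 1, and any share above it in replicate 2 rested on 2 genes. Outside the col symbols 30 genes encoded a Gly-X-Y run of at least 10, and 2 of these had a replicate 1 summit, 6.67% with an interval of 0.818 to 22.1% that contains the 14.4% of all other genes, namely bli-6 and sqt-2. In replicate 2 the genes were bli-1 and dpy-10, again 6.67%, with an interval of 0.818 to 22.1% that contains the 3.11% of all other genes. In the pooled list they were bli-1, bli-6 and sqt-2, 10% with an interval of 2.11 to 26.5%, beside 17.9%. Of 19 matched cuticle collagens named for their phenotype, such as short, rolling or blistered worms, 1 had a summit in replicate 1, 5.26%, sqt-2 with a signal of 2.13 at rank 5191. In replicate 2 it was 2, 10.5%, with signals of 2.27 at bli-1 and 2.172 at dpy-10 and q-values of 0.744 and 0.736. The list of 19 left out bli-6, which had a summit in replicate 1 and in the pooled list, so its shares there are understated. The basement membrane collagens emb-9 and let-2 (type IV) and cle-1 (type XV/XVIII), and the collagen gene mec-5, had 0 summits among 4 genes in each list. Shares over lists of this size move by several percentage points with each gene.

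The other genes of cuticle formation were described from lists of enzymes, matrix proteins and regulators. Of 13 collagen-modifying and cross-linking enzymes, 4 had a replicate 1 summit, 30.8%, beside the 14.4% of other genes. These were phy-2 and phy-4, prolyl 4-hydroxylase alpha subunits, with signals of 3.782 and 2.782, tsp-15, a tetraspanin that works with the dual oxidase of the cuticle, with 2.94, and dpy-31, an astacin metalloprotease that processes procollagen, with 2.057. The dpy-31 peak stood at rank 5503 with a q of 0.0543. None of the 13 had a summit in replicate 2, where 3.11% of other genes did. In the pooled list 3 did, 23.1% beside 17.9%. Of 14 cuticlin and other apical matrix genes 1 had a summit in replicate 1, 7.14% beside 14.4%. This was dex-1, with a signal of 3.406. It was also the only one of them in the pooled list, with 4.69, again 7.14%, and none had a summit in replicate 2. Of 9 epidermal and molting regulators, 2 nuclear receptor genes had a replicate 1 summit, 22.2%. They were nhr-23 with 2.539 and nhr-25 with 2.456, both downstream of a start. In replicate 2 it was 1, 11.1%, blmp-1, with 2.244 and a q of 0.729. In the pooled list it was 3, 33.3%, blmp-1, lin-42 and nhr-25. These lists were chosen with earlier results known and hold few genes, so their shares are descriptions.

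A pair of other large families gave contrasting shares. Of 240 clec genes, which encode C-type lectins, 15 had a replicate 1 summit, 6.25% with an interval of 3.54 to 10.1%, and 12 had one in replicate 2, 5.0%, beside 14.4% and 3.11% of all other genes. Of 70 pqn and abu genes, which encode glutamine- and asparagine-rich proteins, several of them part of the pharyngeal cuticle, 17 did in replicate 1, 24.3% with an interval of 14.8 to 36%. In replicate 2 it was 1 of 70, 1.43%. The pooled shares were 9.17% for clec and 24.3% for pqn and abu genes, beside 17.9% for all other genes. The clec share was thus below that of all other genes in replicate 1 and the pooled list and above it in replicate 2. For the pqn and abu genes the order was the opposite in each list, resting on 1 gene in replicate 2. In replicate 2 the intervals were 2.61 to 8.57% for clec and 0.0362 to 7.7% for pqn and abu genes, and both contain 3.11%. The pooled interval of the pqn and abu genes, 14.8 to 36%, contains 17.9%. Nothing further is read from those orders. No difference between families was tested.

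**Figure D4:**
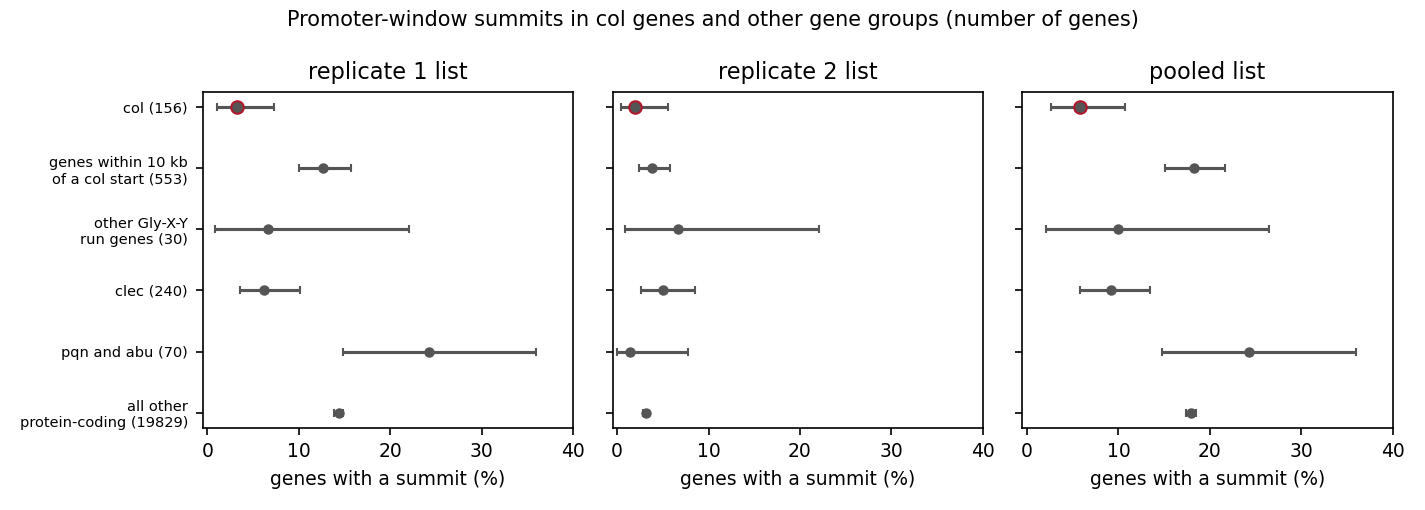
Share of genes with a PHA-4 summit in the promoter window (percent, horizontal axis) for the col genes (red ring), their neighbours, other Gly-X-Y genes, clec genes, pqn and abu genes and all other protein-coding genes, in the 3 lists; bars are exact 95% Clopper-Pearson intervals over genes. In replicate 1 the col genes stand at 3.21%, their neighbours at 12.7% and the pqn and abu genes at 24.3%.

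FoxA matches lay in nearly all promoter windows, of col genes and other genes alike, and were fewer on average in col windows. At least 1 match lay in the window of 152 of 156 col genes, 97.4%, and in 98.8% of those of other genes. The mean number was 4.288 ± 2.317 (SD over 156 genes) against 5.336 ± 2.673 (SD over 19817 genes). The 4 col genes without a match were col-9, col-88, col-101 and col-109. Among genes with at least 4 matches, 2 of 96 col genes, 2.08%, had a replicate 1 summit, against 15% of the others. With 1 to 3 matches it was 3 of 56, 5.36%, against 12.6%. In the pooled list the col shares were 6.25% with at least 4 matches and 5.36% with 1 to 3, against 18.5% and 16.3%. Dense matches with no summit in any list stood upstream of col-185, which with 13 had the most of any col window, and of col-118 with 7. The 101 bases with the most matches in these windows were chosen after their values were seen and lay in intergenic DNA centred 710 bp and 830 bp upstream of the starts.
col-185, X:13511757-13511857, minus strand: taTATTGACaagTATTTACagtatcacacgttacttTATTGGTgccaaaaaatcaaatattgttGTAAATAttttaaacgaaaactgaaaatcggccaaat
col-118, IV:8847338-8847438, plus strand: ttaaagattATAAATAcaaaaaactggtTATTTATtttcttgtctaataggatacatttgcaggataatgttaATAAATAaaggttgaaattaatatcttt
The first holds 4 matches and the second 3, in capitals on either strand. A match is a run of letters and was not tested for binding by PHA-4.

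Other features of the windows differed as well, and the shares within classes of them rest on few col genes. G and C made up a median of 38.0% of the col windows and 35.2% of the others. In windows with at least 40% the replicate 1 shares were 1 of 45 col genes, 2.22%, against 19.4%. At 35 to 40% they were 3 of 77, 3.9%, against 17.2%, and under 35% they were 1 of 34, 2.94%, against 10.9%. A single annotated transcript start was given for 87.2% of col genes and 73.6% of the others. Words of 36 bases found elsewhere in the genome began at 5% or more of the positions in 48 col windows, 30.8%, against 19.6% of the others. No source used here says how reads with more than 1 genomic match were treated. In those 48 windows 0 col genes had a replicate 1 summit against 8.68% of other genes, and in the remaining 108 it was 5, 4.63%, against 15.7%. In replicate 2 the share in the 48 windows was 2.08%, from 1 gene, against 1.77%. The part of base composition and of sequence copies in the low share was not tested.

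The col genes vary in how close their copies lie. Aligned pairwise, the proteins had a median identity of 34.2%, and the best partner of a member had a median of 58.4%. At least 90% identity with a partner was found for 33 members, and the proteins of col-3 and col-117, and of col-126 and col-127, were identical. Of the 156, 50 had another col start within 10 kb, as in the row of col-167, col-168, col-169, col-170 and col-171 on chromosome X. None of these 50 clustered genes had a summit in replicate 1 or in the pooled list, and 1 of them, col-95, had one in replicate 2, 2.0%. Of the 553 other genes within 10 kb of a col start, 12.7%, 18.3% and 3.8% had one in replicate 1, the pooled list and replicate 2. Of the 106 remaining col genes, 5 had one in replicate 1, 4.72% against 14.4% of other genes with no col start that near. In the pooled list 9 did, 8.49% against 17.9%.

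The members with summits were few on every chromosome. Chromosome IV held 41 col genes, V held 31, X held 27, II held 24, I held 21 and III held 12. In replicate 1 the summits were at 2 of the genes on II, 2 on IV and 1 on III, and at none on I, V and X. The shares of other genes were 13.8% on II, 14.2% on IV, 18.4% on III, 17.3% on I and 9.81% on V. In replicate 2 the col genes with a summit were 1 on I, 1 on III and 1 on V. In the pooled list they were 4 on II, 4 on IV and 1 on V. The 27 genes of chromosome X had 0 summits in each of the 3 lists, where 16.6%, 3.44% and 20.7% of other X-linked genes had one in replicate 1, replicate 2 and the pooled list. A count of 0 among so few genes on a chromosome leaves a wide interval, and the difference between chromosomes was not tested.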

How the data were processed

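The data were ChIP-seq peak lists from 2 biological replicates of 1 group. Per the labels, the antibody target was the eGFP-tagged PHA-4, the replicate and pooled lists hold peaks together with background, and 2 control alignments were used in ce11. The signal of each peak and its −log10 q-value were computed and deposited by the authors; the aligner, peak caller and scaling of signal between libraries are not stated in any source used here. Signal was used only to rank and describe peaks within a list, and q-values are printed as q. Lists in ce10 were not used here because the annotation is of ce11 (WBcel235, Ensembl release 115).

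Summits were assigned to promoter windows, shares were given exact Clopper-Pearson 95% intervals (scipy 1.17.1, pandas 2.3.3), and proteins translated from the annotation were aligned with Biopython 1.88 (BLOSUM 62, gap costs 11 and 1). The assignment of summits to windows was tested on simulated data. No such test is given for the search for FoxA matches. Window features cover nuclear genes. There was no second group and the members and gene lists were chosen with earlier results of these data known, so no test was made. Genes named were all col genes with a summit in either replicate, the 10 strongest at most of the pooled list alone, the 3 just outside the window per list, listed genes with a summit in a replicate, and members without a Gly-X-Y run of 10 or of unusual length; neighbours, other genes in shared windows and the pooled-only members of the lists were named after their values were seen. Alternatives were rank, q, window, assignment and gene subsets; comparisons with neighbours, without head-to-head neighbours, by G and C content and by sites were added after seeing the data.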

Additional observations from a re-analysis of the deposited data

How the results depend on the processing

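Of 46 alternative ratios of the col share to the comparison share, 45 were below 1: 16 of 16 in replicate 1 (0 to 0.323), 16 of 16 in the pooled list (0 to 0.477) and 13 of 14 in replicate 2 (0.452 to 1.32). The settings overlap and reuse the lists on which the family was chosen, so this tally is a description and adds no support. The value of 1.32 came from the strongest 250 peaks of replicate 2, where it rested on 1 gene, col-152. That gene also gave a ratio of 3.03 with the strongest 100 peaks of replicate 2 (0.641% against 0.212%), a step described in the ranking but not among the 46. Against the main ratio of 0.223 in replicate 1, the ratio was 0 with the strongest 250, 500 or 1000 peaks. Against 0.322 in the pooled list it was 0 with the strongest 250, 500 or 1000, 0.105 with the strongest 2000 and 0.148 with q of 0.05 or less, where fewer peaks were used. With the strongest 250 and 500, the share of other genes would have given only 1.25 and 2.61 col genes in replicate 1. In the pooled list it would have given 1.21 and 2.6. The exact interval of those counts of 0 reaches 2.34%, above the 0.802% and 1.67% of other genes in replicate 1 and the 0.777% and 1.66% in the pooled list. The count of 8 col genes in either replicate became 1 with the strongest 250 or 500 peaks, 2 with 1000, 3 with 2000 and 5 with q of 0.05 or less, the last pair from replicate 1 alone because replicate 2 had too few such peaks. It became 13 with 2000 bp upstream, 5 by nearest start, 3 in windows shared with no other gene and 5 without head-to-head neighbours. Leaving out 1 replicate gave 3 to 5. No paired analysis was possible because there was 1 group. The counts behind each share are small, the depth is unknown, and the intervals leave out the variation between embryo samples, which 2 replicates without a shared col gene cannot give. For replicate 2, q of 0.05 or less and the strongest 2000 peaks were not run, as the list holds 0 such peaks and 1729 peaks in all.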
